A study of Mus musculus with 12 samples.

Results

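The genes described here are the innate sensors, the tumour necrosis factor (TNF) superfamily and the NF-kB signalling genes of an nCounter panel, an assay that counts single RNA molecules by their barcoded probes with no amplification step. Members are the 39 of 734 endogenous genes whose symbol begins with Tlr, Nod, Nlr, Tnf, Nfkb, Rel, Myd88, Irak, Traf, Tirap or Ticam, with Reln left out by name. They comprise 15 pattern receptors, 4 TNF family ligands, 8 TNF family receptors, 5 adaptors, 1 NF-kB subunit and 6 inhibitors or induced regulators. No member's symbol begins with Rel, Irak, Tirap or Ticam.

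Whole lung RNA, from the post-caudal lobe, was measured in 12 samples. Littermates wild type for Chil4 received PBS (B6_PBS, n = 2) or DRA allergens (B6_DRA, n = 5), and Chil4-deficient littermates received DRA allergens (KO_DRA, n = 5), all intranasally, with 2 doses a week over 8 weeks. What DRA stands for is not spelled out in the labels, which call the deficient mice both KD and KO, and give neither age nor the nature of the allele. Because Chil4-deficient mice given PBS were not analysed here, a genotype difference already present without allergen cannot be told apart from an altered response.

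Toll-like receptors (TLRs) at the cell surface and in endosomes bind microbial lipids, proteins and nucleic acids, and NOD-like receptors sense fragments of bacteria and cell damage in the cytosol. Through adaptors such as MyD88 and TRAF6 they free NF-kB from its IkB inhibitors, and NF-kB then turns on cytokines and its own brakes, IkB proteins and A20. TNF family ligands act on receptors that recruit TRAF proteins to the same pathway. In lung these genes are used by macrophages, dendritic cells, lymphocytes, epithelium and endothelium, so whole lung RNA sums over cell types. Fewer cells of a type and less RNA per cell cannot be told apart in such samples.

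Total endogenous and housekeeping counts ran from 320290 to 673201 per library. Chil4 itself stood at 5121 and 4406 raw counts in the PBS libraries, at 13020 to 89957 in B6_DRA and at 5676 to 24313 in 4 of the KO_DRA libraries, but 111850 in the library labelled KO_DRA 8, the highest of all. The targeted gene thus goes against that label, if the probe reads the altered part of the gene, and the counts and main estimates of the comparisons with KO_DRA are given with and without that library. KO_DRA 11, at 24313 counts, also lay above wild type B6_DRA 5, as did KO_DRA 12 in scaled signal (14729 against 13857), and every KO_DRA library lay above both PBS libraries. B6_DRA 5, with the 13020 counts, lay nearest to B6_PBS for Chil4 among the wild type allergen libraries. Of the markers listed for lung epithelium, 1 of 9 is on the panel (Cdh1, summed scaled signal 1133 to 1712 over all libraries), and of the endothelial markers 4 of 9 (Cdh5, Tek, Flt1 and Thbd), all above background in most libraries. The labels do not tie each sample to a mouse of its own, so the p-values reflect no more than the spread among these samples.

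Levels below are the authors' scaled signal, the raw count times 1 factor per library. Log2 fold changes, standard errors (SE) and adjusted p-values are from edgeR's quasi-likelihood test on the raw counts with TMM scaling, adjusted by Benjamini-Hochberg over all 665 endogenous genes tested. Of the members, 37 passed the filter on low counts. The other two, Tlr12 with 3 to 12 counts and Tnfsf4 with 2 to 9 counts, were not tested.

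The first comparison, B6_DRA against B6_PBS, addressed the response of wild type lung to the allergens. The endosomal receptor gene Tlr13, the surface receptor genes Tlr1 and Tlr6, the receptor genes Tnfrsf1b, Tnfrsf4 and Tnfrsf9 of the TNF family, and the brakes Nfkbie and Tnfaip3 rose, while the adaptor genes Traf1 and Traf6 and the death ligand gene Tnfsf10 fell. The central adaptor gene Myd88, the NF-kB subunit gene Nfkb1 and the main inhibitor gene Nfkbia had estimates near 0. In all, 15 of 37 members passed, 10 higher and 5 lower. Over all genes 41.8% passed, 24.1% higher and 17.7% lower, so the members' share of 40.5% was close to the background. At an unadjusted p under 0.05 stood 18 members, against 53.4% of all genes. The median log2 fold change was 0.07 for the members and 0.01 for all genes tested.

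Both the split and the calls have limits. With the authors' factors in place of TMM, which moved the median of all genes to 0.10, the split was 10 higher and 0 lower (24.4% and 9.77% of all genes). With library size alone, which moved it to -0.63, it was 2 higher and 12 lower (8.57% and 33.4% of all genes). No member and no other gene of the panel passed without B6_PBS 1 or without B6_PBS 2. Without B6_DRA 3, 4, 6 and 7, 5, 6, 9 and 5 members passed, against 19.2%, 26.5%, 23.8% and 20.5% of all genes. Leaving out B6_DRA 5 instead raised the number to 19 members, against 52.1% of all genes. In scaled signal the groups did not overlap for 10 members that were higher in B6_DRA (34.7% of all genes) and for 4 that were lower (21.5% of all genes).

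**Figure D1:**
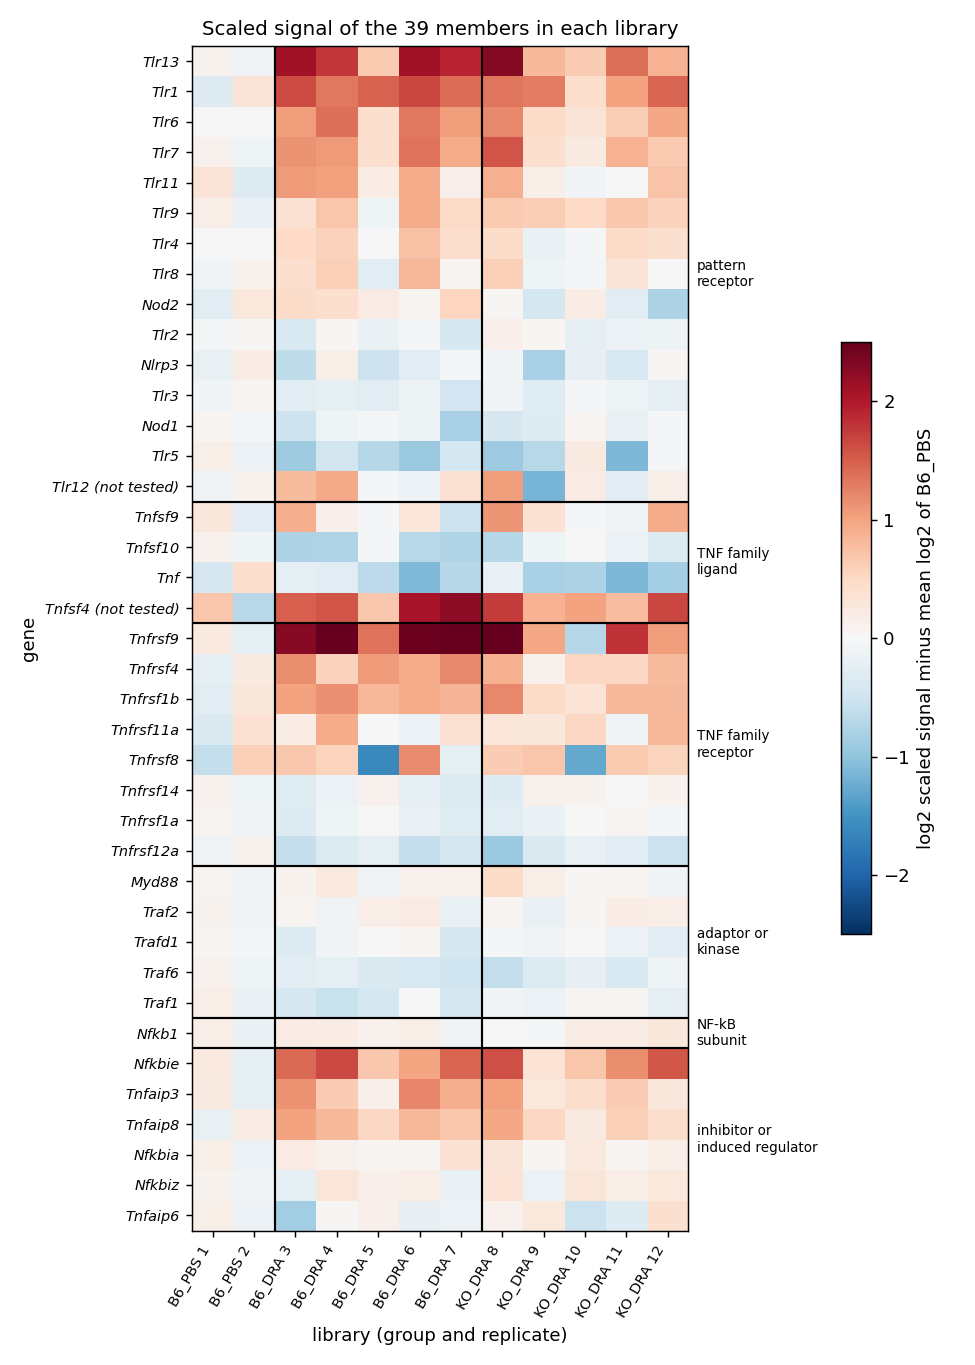
Scaled signal of all 39 members (rows, grouped by role) in the 12 libraries (columns), as log2 minus the mean log2 of B6_PBS; red is higher and blue lower. Tlr13, Tlr1, Tnfrsf9 and Nfkbie are red in most allergen libraries, Myd88, Traf2 and Nfkb1 stay pale, and Tlr12 and Tnfsf4 were not tested.

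Counts by role group below stand beside 24.1% higher and 17.7% lower over all genes. Among the pattern receptors, 4 of the 14 tested rose and 1 fell. TLR13 recognises bacterial ribosomal RNA in mouse endosomes. Tlr13 stood at 61.2 and 53.5 in B6_PBS, at 246, 196, 90.5, 247 and 213 in B6_DRA 3 to 7, and at 282, 100.3, 88.8, 149 and 105 in KO_DRA 8 to 12. The groups given allergen did not overlap B6_PBS, but B6_DRA 5 lay far below the other B6_DRA libraries and the library labelled KO_DRA 8 far above the other KO_DRA libraries. It rose 3.23-fold in B6_DRA, or by 1.69 with an SE of 0.473 on the log2 scale, with an adjusted p of 0.024 from edgeR.

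TLR1 and TLR6 each pair with TLR2 to bind bacterial lipoproteins. Tlr1 was 18.1 and 28 in B6_PBS and 69.7, 56.2, 62.8, 71.5 and 58.9 in B6_DRA 3 to 7. In KO_DRA 8 to 12 it was 57.1, 54.6, 30.5, 45.4 and 61.6. All 5 wild type allergen libraries lay more closely together than for Tlr13, B6_DRA 5 included. It rose 2.58-fold, or by 1.36 with an SE of 0.289 on the log2 scale, with an adjusted p of 0.0135 from edgeR, the smallest adjusted p among the members. Tlr6 was 22.4 and 22.2 in B6_PBS and 46.2, 58.0, 29.8, 55.5 and 46.3 in B6_DRA 3 to 7, and rose 1.97-fold (adjusted p = 0.0263 by edgeR). It was 51.5, 31.0, 27.8, 34.1 and 43.5 in KO_DRA 8 to 12, above both PBS libraries.

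Tlr2, their partner, did not pass the test. It was 82.8 and 86.5 in B6_PBS and 64.5 to 87.8 in B6_DRA, overlapping groups (estimate -0.27 on the log2 scale, SE 0.148, adjusted p = 0.147 by edgeR). Ratios of raw counts within a library do not depend on any scaling, although they do not compare the levels of different genes; these pairs were chosen after their values were seen and are given without a test. Counts of Tlr1 over those of Tlr2 were 0.219 and 0.324 in B6_PBS and 0.640 to 1.07 in B6_DRA, and those of Tlr6 over Tlr2 were 0.271 and 0.257 against 0.394 to 0.717. Neither pair of groups overlapped. In KO_DRA the ratios were 0.425 to 0.797 and 0.355 to 0.562, above both B6_PBS libraries and overlapping B6_DRA.

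The endosomal nucleic acid receptors did not move as a block. Tlr7, a receptor for single-stranded RNA, was 58.6 and 50.2 in B6_PBS and 119, 113, 72.4, 138 and 104 in B6_DRA 3 to 7, and rose 1.87-fold (adjusted p = 0.0404 by edgeR). In KO_DRA 8 to 12 it was 162, 72.6, 63.7, 98.8 and 85.7, with the library labelled KO_DRA 8 the highest of all 12. Tlr3, which binds RNA duplexes and signals without MyD88, was 103 and 112 in B6_PBS and 88.6, 91.3, 89.4, 98.7 and 77.1 in B6_DRA 3 to 7. Those groups did not overlap, whereas KO_DRA, at 102, 87.2, 105, 99.9 and 90.6, overlapped both. Tlr3 fell by 0.37 on the log2 scale (SE 0.113, adjusted p = 0.0306 by edgeR). Tlr8 and Tlr9, a receptor for unmethylated CpG DNA, had log2 fold changes of 0.27 (SE 0.242) and 0.41 (SE 0.22) and did not pass.

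Of the remaining sensors none passed. Tlr4, the lipopolysaccharide receptor gene, was 219 and 223 in B6_PBS and 224 to 365 in B6_DRA, with B6_DRA 5 at the bottom (log2 fold change 0.37, adjusted p = 0.123 by edgeR). Tlr5, the flagellin receptor gene, was 46.6 and 37.9 in B6_PBS against 22.2 to 30.9 in B6_DRA, groups that did not overlap (log2 fold change -0.77, SE 0.336, adjusted p = 0.0809 by edgeR). The peptidoglycan sensor genes Nod1 and Nod2 and the inflammasome gene Nlrp3 had log2 fold changes of -0.39, 0.22 and -0.34. Tlr11, a receptor for parasite profilin in mice, had 8 to 24 counts and a log2 fold change of 0.61 (SE 0.35).

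Of the TNF family ligands, 1 of 3 tested fell and none rose. Tnf itself was low, with 14 to 60 counts. It was 27.6 and 49.4 in B6_PBS, against 17.3 to 31.1 in B6_DRA, and KO_DRA spanned 17.0 to 32.5, overlapping groups (log2 fold change -0.71, SE 0.293, adjusted p = 0.0689 by edgeR). Tnfsf10 encodes TRAIL, which can trigger apoptosis. It was 757 and 659 in B6_PBS and 416, 418, 685, 438 and 419 in B6_DRA 3 to 7, with 431, 653, 710.5, 638 and 557 in KO_DRA 8 to 12. Here 4 of the 5 allergen libraries clustered tightly and B6_DRA 5 stood between the PBS libraries, while in KO_DRA the library labelled KO_DRA 8 was the lowest. Tnfsf10 fell by 0.66 on the log2 scale (SE 0.234, adjusted p = 0.0412 by edgeR). The estimate for Tnfsf9, the CD137 ligand gene, was 0.13 on the log2 scale (SE 0.404). Tnfsf4, the OX40 ligand gene, was at or below background, the mean plus 2 SD of the negative control probes, in both B6_PBS libraries, 3 of 5 in B6_DRA and 4 of 5 in KO_DRA.

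Of the 8 TNF family receptors, 3 rose and 1 fell. TNF has a broadly expressed receptor, encoded by Tnfrsf1a, and a second, encoded by Tnfrsf1b, that leukocytes and endothelium use. Tnfrsf1b was 56.9 and 84.8 in B6_PBS and 140.4, 153, 123, 132 and 125 in B6_DRA 3 to 7, without overlap, and rose 1.77-fold, or by 0.83 with an SE of 0.215 on the log2 scale, with an adjusted p of 0.0203 from edgeR. Tnfrsf1a was 709 and 639.9 in B6_PBS and 539 to 669 in B6_DRA (log2 fold change -0.28, SE 0.123, adjusted p = 0.0831 by edgeR). Counts of Tnfrsf1b over those of Tnfrsf1a were 0.0803 and 0.133 in B6_PBS and 0.184 to 0.261 in B6_DRA, a pair also chosen after its values were seen. In KO_DRA this ratio was 0.130 to 0.291, overlapping both other groups.

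A pair of costimulatory receptors of activated T cells also rose. Tnfrsf4, which encodes OX40, was 15.5 and 21.4 in B6_PBS and 40.5, 27.2, 38.3, 34.5 and 42.1 in B6_DRA 3 to 7, without overlap, and rose 1.84-fold (adjusted p = 0.0287 by edgeR). In KO_DRA 8 to 12 it was 33.6, 19.6, 26.0, 26.1 and 31.4, overlapping both. Tnfrsf9, which encodes CD137, was 3.45 and 2.47 in B6_PBS, both below background, and 14.1, 22.0, 7.45, 16.0 and 29.5 in B6_DRA 3 to 7, of which B6_DRA 5 was below background. Its mean in B6_DRA, 17.8 ± 8.32 (SD, n = 5), was 3.26-fold the B6_PBS background level, a lower bound on its rise over B6_PBS. The edgeR test on the counts themselves gave an adjusted p of 0.0323. In KO_DRA 8 to 12 it was 20.2, 5.71, 1.79, 10.2 and 6.04.

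Tnfrsf12a, the TWEAK receptor gene, was 234 and 261 in B6_PBS and 166, 195, 207, 165 and 182 in B6_DRA 3 to 7, without overlap, and fell by 0.53 on the log2 scale (SE 0.19, adjusted p = 0.0436 by edgeR). It was 129.9, 192, 218, 204 and 170.3 in KO_DRA 8 to 12, also below both PBS libraries. Tnfrsf14, Tnfrsf11a and Tnfrsf8, which encode HVEM, RANK and CD30, had log2 fold changes of -0.27, 0.18 and 0.15 and did not pass.

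**Figure D2:**
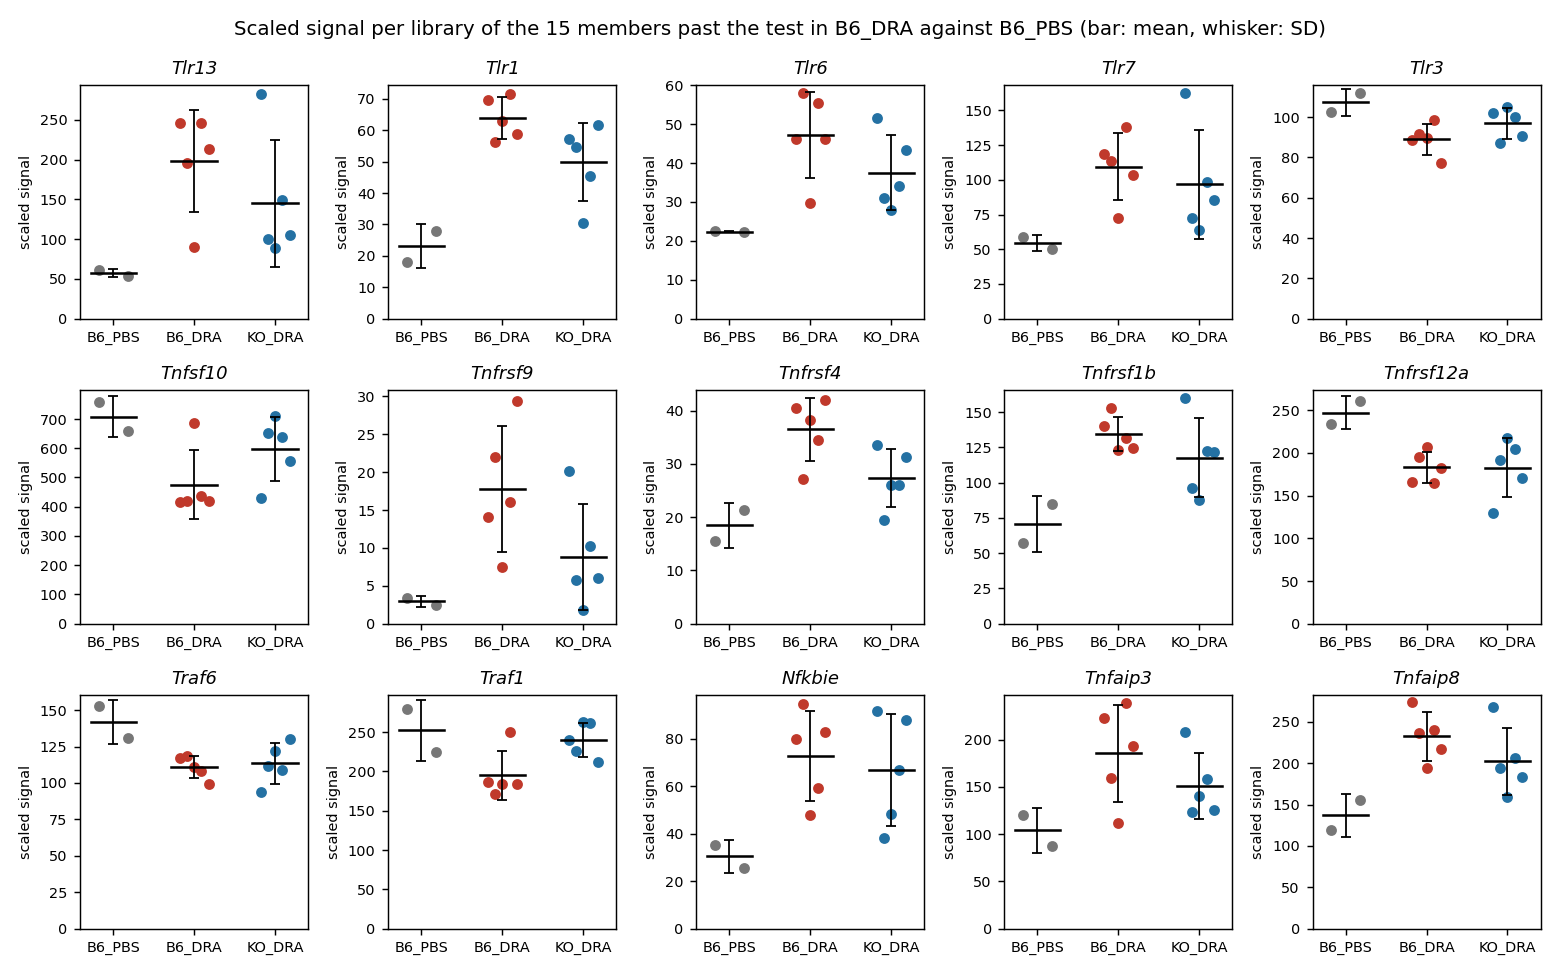
Scaled signal (y axis, from 0) in each library of B6_PBS (grey), B6_DRA (red) and KO_DRA (blue) for the 15 members past the test in B6_DRA against B6_PBS; bars are means and whiskers SD. In Tlr13 the KO_DRA libraries sit at 88.8 to 149 except the one labelled KO_DRA 8 at 282, and in Tnfsf10 the B6_DRA libraries sit at 416 to 438 except B6_DRA 5 at 685.

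Of the 5 adaptors, 2 fell and none rose. TRAF6 carries the signal from MyD88 to the NF-kB kinases, and TRAF1 and TRAF2 act below TNF receptors. Traf6 was 153 and 131 in B6_PBS and 117, 119, 111, 108 and 99.6 in B6_DRA 3 to 7, without overlap, and fell by 0.45 on the log2 scale (SE 0.147, adjusted p = 0.0338 by edgeR). It was 94.1, 112, 122, 109 and 130.4 in KO_DRA 8 to 12, all below both PBS libraries. Traf1 was 279 and 225 in B6_PBS and 187, 171, 184, 250.4 and 184 in B6_DRA 3 to 7, where B6_DRA 6 lay between the PBS libraries, and fell by 0.46 (SE 0.142, adjusted p = 0.0306 by edgeR).

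The other adaptor genes did not pass. Traf2 and Myd88 had log2 fold changes of -0.05 (SE 0.12) and 0.00 (SE 0.136), and Trafd1, a TRAF-type zinc finger gene that restrains TLR signalling, had -0.23 (SE 0.128). Counts of Traf1 over those of Traf2, another pair chosen after its values were seen, were 0.982 and 0.883 in B6_PBS and 0.611 to 0.809 in B6_DRA. In KO_DRA this ratio was 0.704 to 0.954, overlapping both other groups. With the authors' factors none of the 5 members that fell passed: the log2 fold changes were -0.27 for Tlr3, -0.57 for Tnfsf10, -0.43 for Tnfrsf12a, -0.37 for Traf1 and -0.35 for Traf6, with adjusted p from 0.0579 to 0.121 by edgeR.

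Of the NF-kB genes, the subunit gene Nfkb1 was 362 and 289 in B6_PBS, 375, 369, 347, 358 and 303 in B6_DRA 3 to 7 and 324, 317, 366, 370.0 and 396 in KO_DRA 8 to 12, overlapping throughout (log2 fold change 0.01, SE 0.121). Among the 6 inhibitors and induced regulators, 3 rose and none fell. Nfkbie, which encodes IkB epsilon, was 35.4 and 25.5 in B6_PBS, 80.1, 94.9, 47.9, 59.2 and 82.7 in B6_DRA 3 to 7 and 91.8, 38.3, 48.4, 67.0 and 88.1 in KO_DRA 8 to 12. Every allergen library lay above both PBS libraries, and Nfkbie rose 2.25-fold in B6_DRA, or by 1.17 with an SE of 0.365 on the log2 scale, with an adjusted p of 0.0308 from edgeR. Nfkbia, which encodes IkB alpha, was 189 and 155 in B6_PBS and 179 to 220.2 in B6_DRA (log2 fold change 0.07, SE 0.138).

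The ratio of the counts of these inhibitor genes can be compared between groups without scaling. Counts of Nfkbie over those of Nfkbia, chosen after their values were seen, were 0.187 and 0.165 in B6_PBS. They ranged from 0.266 to 0.514 in B6_DRA and from 0.216 to 0.468 in KO_DRA. Neither allergen group overlapped B6_PBS.

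Tnfaip3 encodes A20, an enzyme that edits ubiquitin chains and ends NF-kB signalling. It was 121 and 87.3 in B6_PBS and 223, 159.9, 112, 239 and 193 in B6_DRA 3 to 7, where B6_DRA 5 lay between the PBS libraries. In KO_DRA 8 to 12 it was 208, 123, 139.9, 159 and 126, all above both PBS libraries. Tnfaip3 rose 1.67-fold, or by 0.74 with an SE of 0.275 on the log2 scale, with an adjusted p of 0.0483 from edgeR, just past the threshold, and 5 of 8 other settings of scaling, tool or filter did not call it. Tnfaip8, a TNF-induced regulator of cell death, was 119 and 156 in B6_PBS and 274, 237, 194, 241 and 217 in B6_DRA 3 to 7, without overlap, and rose 1.58-fold (adjusted p = 0.0249 by edgeR), but with library size alone its log2 fold change was -0.0007. In KO_DRA 8 to 12 it was 268, 195, 159.7, 207 and 184, above both PBS libraries. Nfkbiz, an atypical IkB, and Tnfaip6, a hyaluronan-binding protein gene, had log2 fold changes of -0.05 and -0.28.

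Promoters are shown for these genes because NF-kB is known to control its own inhibitors, and because Nfkbie and Tnfaip3 passed the test and Nfkbia and Tlr2 did not. Each run is the RefSeq window of GRCm38.p6 from 250 bases before to 50 bases after a gene's start, with matches to the NF-kB (kappaB) consensus of 10 bases, on either strand, in capitals. The windows are Nfkbia at chr12:55492598-55492897 (minus strand), Nfkbie at chr17:45555450-45555749 (plus strand), Tnfaip3 at chr10:19015361-19015660 (minus strand, 1 of its 2 starts in the table, the other of which holds 0 matches) and Tlr2 at chr3:83841559-83841858 (minus strand).
Nfkbia: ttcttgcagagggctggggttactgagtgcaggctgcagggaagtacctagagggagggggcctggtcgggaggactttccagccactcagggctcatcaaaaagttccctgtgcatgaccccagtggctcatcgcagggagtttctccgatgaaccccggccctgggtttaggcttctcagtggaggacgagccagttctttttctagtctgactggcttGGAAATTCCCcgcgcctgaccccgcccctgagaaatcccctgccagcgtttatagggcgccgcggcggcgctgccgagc
Nfkbie: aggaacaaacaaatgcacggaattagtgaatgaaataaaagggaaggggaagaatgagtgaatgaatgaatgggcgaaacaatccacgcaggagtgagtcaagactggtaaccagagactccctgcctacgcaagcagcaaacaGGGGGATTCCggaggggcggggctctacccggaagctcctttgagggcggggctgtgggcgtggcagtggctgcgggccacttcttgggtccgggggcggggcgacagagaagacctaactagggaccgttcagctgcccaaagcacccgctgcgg
Tnfaip3: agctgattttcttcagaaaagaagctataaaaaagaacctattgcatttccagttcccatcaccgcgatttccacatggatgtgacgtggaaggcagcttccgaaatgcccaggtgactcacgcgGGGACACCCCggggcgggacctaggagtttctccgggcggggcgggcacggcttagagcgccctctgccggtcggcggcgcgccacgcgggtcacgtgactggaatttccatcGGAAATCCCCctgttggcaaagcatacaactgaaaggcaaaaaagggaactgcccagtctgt
Tlr2: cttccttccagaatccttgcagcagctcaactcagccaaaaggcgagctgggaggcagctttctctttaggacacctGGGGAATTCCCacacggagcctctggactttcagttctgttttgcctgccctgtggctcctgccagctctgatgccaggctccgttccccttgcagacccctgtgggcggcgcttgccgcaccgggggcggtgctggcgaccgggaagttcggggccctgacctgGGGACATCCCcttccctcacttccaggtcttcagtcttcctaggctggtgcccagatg

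All 4 windows hold the consensus: 1 match in Nfkbia, 1 in Nfkbie, 2 in Tnfaip3 and 3 in Tlr2, of which a pair overlap as 1 longer run. Of the 32 members with a window, 8 hold a match at some start, against 5.14% of all genes in the table. The others are Nlrp3, Tlr3, Tnfrsf8 and Tnfrsf9. A match occurred in 4 of 13 members with a window that passed the test and in 4 of 19 that did not pass or were not tested. A match is a description of these letters only.

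**Figure D3:**
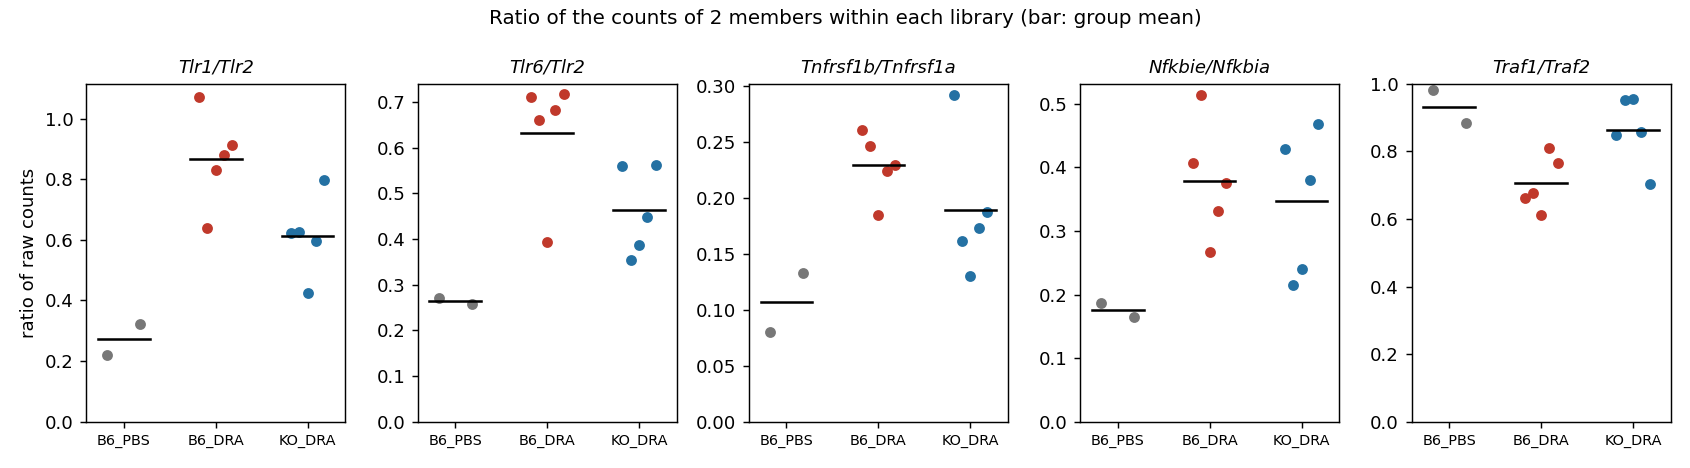
Ratio of the raw counts of a pair of members within each library (y axis, from 0) in B6_PBS (grey), B6_DRA (red) and KO_DRA (blue), with group means as bars. Counts of Tlr1 over Tlr2 are 0.219 and 0.324 in B6_PBS and 0.640 to 1.07 in B6_DRA, and counts of Traf1 over Traf2 are 0.883 and above in B6_PBS and at most 0.809 in B6_DRA.

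The other genes of the pathway gave the following counts in the same comparison, where 24.1% of all genes rose and 17.7% fell. Of 5 other sensors and co-receptors on the panel, 3 rose and 1 fell. Among them Tmem173, which encodes STING, rose 2.13-fold, Clec7a, the beta-glucan receptor gene, rose 3.57-fold, and the scavenger receptor gene Cd36 fell by 0.46 on the log2 scale. Of 8 NF-kB kinases and partners, 2 rose and none fell: Malt1, the paracaspase gene, 2.44-fold and Birc3, a ubiquitin ligase gene, 1.54-fold. Of 5 tested TNF family genes under other symbols 1 rose, Cd40lg (2.96-fold). In the list of 9 inflammasome and interleukin-1 family genes 2 rose and 2 fell. Il1r2, a decoy receptor gene, rose 2.37-fold, while Il18r1 fell by 0.59 and Il1rap by 0.31 on the log2 scale. The B6_PBS mean of Il1r2, 7.63, was also near background, so its fold is uncertain in size too. Of 16 known NF-kB target genes, 7 rose and 1 fell, with a median log2 fold change of 0.73, against 0.01 over all genes. The chemokine genes Ccl20 and Cxcl5 had log2 fold changes of 2.36 and 4.70, and Il6, above background in 1 of the 2 B6_PBS libraries and so uncertain in size, had 1.55 (adjusted p 0.00748, 0.0171 and 0.0188 by edgeR).

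Genes listed as markers of several cell types moved in these libraries. The counts are for B6_DRA against B6_PBS, where 24.1% of all genes rose and 17.7% fell. Macrophage and monocyte markers rose in 8 of 14 genes with 1 lower, and their summed scaled signal was 6617 to 7076 in B6_PBS, against 7585 to 11534 in B6_DRA, with 7342 to 12818 in KO_DRA. Dendritic cell markers rose in 4 of 6 genes, with sums of 224 to 276, 381 to 758 and 293 to 869 in the same order. Eosinophil markers rose in 3 of 5 tested genes, with sums of 144 to 145, 314 to 706 and 165 to 638. Of the 2 genes listed for B cells on the panel, Btk rose and Ms4a1 did not pass. Their sums were 238 to 250, 389.7 to 534 and 243 to 599 in the same order. Neither of the 2 T cell markers on the panel passed, with sums of 51.9 to 66.4, 72.0 to 110.3 and 75.4 to 125. Of 9 neutrophil markers on the panel 5 were tested and none passed, with sums of 1460 to 2462, 687 to 4272 and 1722 to 2936, and Mpo, Elane, Ly6g and Camp lay at or below background in most libraries. The 4 endothelial markers all fell, with sums of 6767 to 8335, 3127 to 5616 and 3382 to 7105, and the epithelial marker fell. Whether a listed gene, such as Btk, marks its own cell type alone was not tested. The part of these cell types in the members' changes was not tested either.

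Single libraries also moved with the response. For the 10 members that rose, B6_DRA 5 was the lowest B6_DRA library in 8, as it was in 76.9% of the 160 genes that rose over the whole panel. The library labelled KO_DRA 8 was the highest KO_DRA library in 9 of the 10, as in 85% of those 160 genes, and KO_DRA 10 was the lowest in 7, as in 72.5%.

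The second comparison set KO_DRA against B6_DRA, to ask what Chil4 deficiency changed under allergen. No member passed edgeR's test. Over all genes 0% passed, so the members stood with the rest of the panel. At an unadjusted p under 0.05 stood 2 of 37 members, Traf1 and Nod2, against 12.6% of all genes. DESeq2 and limma-voom called no member either, against 0.15% and 0% of all genes. This comparison and the first share the B6_DRA libraries, so the estimates are given side by side and nothing is read from their signs. Tlr13 had 1.69 (SE 0.473) for the allergen and -0.45 (SE 0.321) for the genotype on the log2 scale, and Tnfrsf4 had 0.88 (SE 0.266) and -0.41 (SE 0.192). Nfkbie had 1.17 and -0.13 (SE 0.254), and Tnfrsf12a had -0.53 and 0.02 (SE 0.149). Tnfrsf9, for which the allergen gives only the bound of at least 3.26-fold, had -1.03 (SE 0.488) for the genotype. The genotype estimates for these genes did not pass, with adjusted p from 0.378 to 0.968 by edgeR.

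Traf1 was 239.6, 226, 263, 261 and 213 in KO_DRA 8 to 12, against 171 to 250.4 in B6_DRA (log2 fold change 0.32, SE 0.111, unadjusted p = 0.0136, adjusted p = 0.321 by edgeR). All KO_DRA libraries lay above 4 of the 5 B6_DRA libraries, and B6_DRA 6 lay among them. Nod2, at 8 to 25 counts, was 9.66 to 18.8 in KO_DRA and 17.3 to 23.8 in B6_DRA (log2 fold change -0.53, SE 0.205, unadjusted p = 0.024, adjusted p = 0.328 by edgeR). The groups overlapped only between KO_DRA 10, the highest of its group, and B6_DRA 6, the lowest of its own. No member had groups without overlap in either direction, against 0.602% of all genes in each. Without the library labelled KO_DRA 8, an alternative added after seeing the data, 1 member, Tnfrsf1b, was lower without overlap, against 3.16% of all genes, and none was higher, against 3.01%.

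Without the library labelled KO_DRA 8, singled out after its values were seen, 2 of 37 members passed, both lower, against 18.1% of all genes either way, 13.6% lower and 4.52% higher. An unadjusted p under 0.05 by edgeR was then reached by 10 of 37 members, against 36.7% of all genes. Tlr13 was then 88.8 to 149 in KO_DRA against 90.5 to 247 in B6_DRA (log2 fold change -0.81, SE 0.255, adjusted p = 0.0499 by edgeR). Tnfrsf9 was 1.79 to 10.2 in the same 4 libraries against 7.45 to 29.5 in B6_DRA (log2 fold change -1.55, SE 0.455, adjusted p = 0.0426 by edgeR). In both genes B6_DRA 5 lay within the range of the 4 KO_DRA libraries. Tnfrsf9 was at or below background in 2 of the 5 KO_DRA libraries, so the size of its difference is uncertain. Traf1 and Tnfsf10 had log2 fold changes of 0.34 (adjusted p = 0.0604 by edgeR) and 0.47 (adjusted p = 0.0608 by edgeR) without that library and did not pass. Of the other genes given above, Tnfrsf4 had -0.47, Nfkbie -0.26, Tnfrsf12a 0.14 and Nod2 -0.57 without it, with adjusted p from 0.0957 to 0.496 by edgeR.

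**Figure D4:**
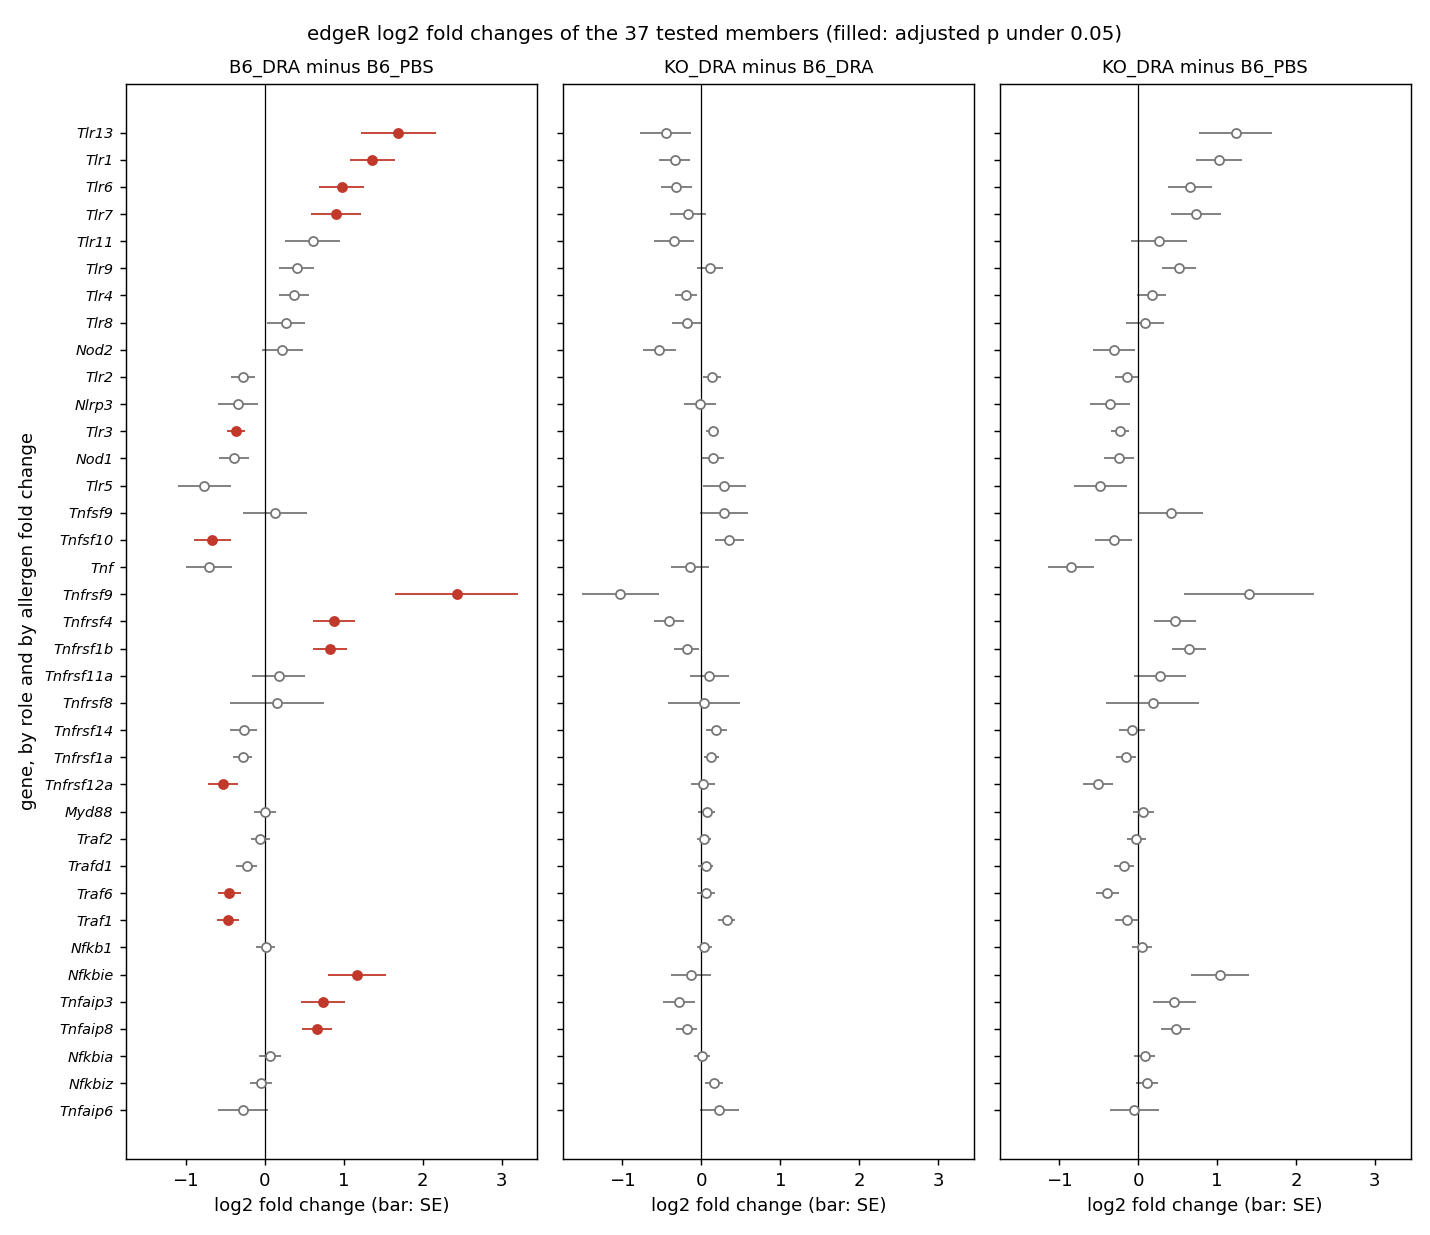
Log2 fold changes with SE (x axes) from edgeR for the 37 tested members (rows, by role) in the 3 comparisons; filled red points passed at an adjusted p under 0.05 and open grey points did not. In B6_DRA against B6_PBS 15 members passed, and in the comparisons with KO_DRA none did.

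The third comparison set KO_DRA against B6_PBS, so genotype and allergen differ together. No member passed, against 3.01% of all genes. Without the library labelled KO_DRA 8 none passed either, against 1.36% of all genes. In that fit the estimates for Tlr1, Nfkbie, Tlr13 and Tnfrsf1b were 0.99, 0.91, 0.88 and 0.53 on the log2 scale. With all 12 libraries, 11 of 37 members stood at an unadjusted p under 0.05 by edgeR, against 28.6% of all genes. In scaled signal 9 members were higher in KO_DRA without overlap, against 26.9% of all genes, and 2 were lower, Traf6 and Tnfrsf12a, against 8.57%. Without the library labelled KO_DRA 8 these counts were 9 at an unadjusted p under 0.05 (21.7% of all genes), 9 higher without overlap (27.2%) and 3 lower (9.32%), with Tnf the third.

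Tlr1 came nearest to the threshold. Its 5 KO_DRA libraries, with a mean of 49.8 ± 12.3 (SD, n = 5), all lay above the 18.1 and 28 of B6_PBS (log2 fold change 1.03, SE 0.287, adjusted p = 0.0972 by edgeR). DESeq2 called it (adjusted p = 0.0238), limma on the authors' scaled values did too (adjusted p = 0.0366), and so did edgeR without KO_DRA 10, the lowest of the 5 (adjusted p = 0.0152). Over all genes DESeq2 and limma on those values called 8.42% and 3.76%, against 3.01% in the main fit. No member was called by limma-voom, or by edgeR with the authors' factors, library size alone, no filter or the 2 groups alone. Of all genes these called 1.95%, 3.01%, 0.602%, 2.04% and 0%, in that order. Leaving out any other single KO_DRA or B6_DRA library also gave no member call, against 0% to 2.56% of all genes. Nfkbie and Tlr13 had log2 fold changes of 1.04 (SE 0.363) and 1.24 (SE 0.465), both with an adjusted p of 0.137 by edgeR. Tnfrsf1b was 160.1, 96.2, 87.9, 123 and 122 in KO_DRA 8 to 12, all above both B6_PBS libraries (log2 fold change 0.64, SE 0.214, adjusted p = 0.132 by edgeR); it passed without KO_DRA 10 (adjusted p = 0.0401 by edgeR). Those 2 members compare with 11.9% of all genes that passed without KO_DRA 10. Tlr9 was 54.7 to 62.4 in KO_DRA (mean 59.2 ± 3.07, SD, n = 5) against 44.0 and 34.6 in B6_PBS, with a log2 estimate of 0.52 (SE 0.22, adjusted p = 0.164 by edgeR), and of 0.53 (adjusted p = 0.214 by edgeR) without the library labelled KO_DRA 8.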

How the data were processed

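Whole lung RNA of 12 samples was measured on an nCounter innate immune panel. The authors deposited raw counts per probe (734 endogenous, 20 housekeeping, 8 negative and 6 positive control probes). The authors' second deposited table is a scaled signal, found here to equal the raw counts times 1 factor per library. R 4.2.0, edgeR and limma appear in the submitters' processing notes, with no role stated; how the factors were set is not stated. Housekeeping probes were recognised where the table's alphabet starts again.

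Groups came from sample titles. Raw counts of endogenous and housekeeping probes were filtered with filterByExpr (minimum count 10, minimum total 15), scaled by TMM and fitted with 1 mean per group over all 12 libraries (edgeR 4.0.16, R 4.3.3, quasi-likelihood, two-sided, 9 residual degrees of freedom), with Benjamini-Hochberg adjustment over 665 endogenous genes and a threshold of 0.05. The fit was tested on counts drawn from its own means and spreads, which cannot show whether the real libraries follow that model. Alternatives were library size alone, the authors' factors, DESeq2 1.42.0, limma-voom and limma 3.58.1 on log2 of the scaled signal plus 1, filters, the 2 groups alone and each library left out.

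All members may be named; those past the threshold, up to 8 per role group, are given in every library, and where a group has none, the 2 with the smallest p. Pathway lists name up to 3 genes past the threshold. Members, role groups and lists were chosen with earlier results of these data known. Promoter windows are from RefSeq, GRCm38.p6; 7 members have no entry and 7 have several.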

Additional observations from a re-analysis of the deposited data

Results flagged for a closer look

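In groups of 5, 74 sets of values of tested members were checked for a library far from the others, of which chance alone flags about 1 in 20; 3 were found. Tnfsf10 stood at 685.42 scaled signal in B6_DRA 5, with the other B6_DRA libraries at 416 to 438. Traf1 stood at 250.37 in B6_DRA 6, with the others at 171 to 187. Tnfrsf8, near background, stood at 2.69 in KO_DRA 10, with the other KO_DRA libraries at 9.66 to 10.6.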

How the results depend on the processing

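For B6_DRA against B6_PBS the 15 member calls (10 higher, 5 lower) became 2 higher and 12 lower with library size alone. With the authors' factors they became 10 higher and 0 lower. They became 9 in all with 0 lower for limma on the scaled values, where 31.1% of all genes passed, 6.77% lower. With a mean count of at least 50 they became 8 in all (6 higher, 2 lower) of 24 members, against 43.5% of all genes (27% higher, 16.5% lower). Leaving out each B6_DRA or KO_DRA library in turn gave 5 to 19 calls, 5 to 12 higher and 0 to 7 lower. Of all genes 19.2% to 52.1% passed in those fits, 13.8% to 27.9% higher and 5.41% to 24.2% lower. Without B6_PBS 1 or 2, 1 library is left in that group, and the calls in that case are given above. DESeq2, limma-voom, no filter and the 2 groups alone each kept 14 of the 15 calls. Tnfaip8 had a log2 fold change of -0.0007 with library size alone. For KO_DRA against B6_DRA, leaving out each B6_DRA or KO_DRA library gave 0 to 2 calls, 0 to 2 of them lower and none higher. Of all genes 0% to 18.1% passed in those fits, 0% to 13.6% lower and 0% to 4.52% higher. For KO_DRA against B6_PBS, DESeq2 and limma on the scaled values each called 1 member, higher (8.42% and 3.76% of all genes passed), and leaving out each library gave 0 to 2 calls, 0 to 2 of them higher (0% to 11.9% of all genes). With CPM in place of scaled signal, groups without overlap that were lower numbered 10 in place of 4 against B6_PBS for B6_DRA and 5 in place of 2 for KO_DRA, where 28.1% and 16.5% of all genes did so with CPM. Without the library labelled KO_DRA 8, an alternative added after seeing the data, 1 member in place of 0 was lower in KO_DRA than in B6_DRA without overlap (3.16% of all genes). Samples of different groups could not be paired, because their titles name no litter and their numbers run on from group to group. Except where a filter or a left-out library leaves fewer genes or samples, the cause was not tested. With 2 PBS libraries the precision is limited, and members near background (Tnfrsf9, Tnfsf4, Tlr12, Tnfrsf8) have uncertain folds.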
